A study of Rattus norvegicus with 12 samples.

Results

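The activator protein 1 (AP-1) transcription factor is assembled from small leucine zipper proteins of the FOS, JUN and ATF families, and 10 genes of this kind were followed here in visceral adipocytes of stressed and control rats. The genes were Fos, Fosb, Fosl1, Fosl2, Jun, Junb, Jund, Atf3, Batf and Maff, and every non-control probe that the array design assigns to them was read. All 10 genes had a probe, and Fosl2 had 2, which gave 11 probes among the 30367 non-control probes and 26480 named genes of the array.

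RNA came from epididymal adipocytes of male Fisher 344 rats, a widely used inbred strain, bought at an age of about 12 weeks. In the CUS group (chronic unpredictable stress), 6 rats received 2 stressors per day in random order for 35 days. Among the stressors were cold swimming, rotation, isolation, crowding, wet bedding, changes of light and overnight deprivation of food and water. In the control group, 6 rats were only weighed and handled every 2 days. Each RNA was hybridised to 1 single-colour gene expression array, and the question was how prolonged stress alters gene expression in visceral fat cells. The labels call the cells adipocytes, but their RNA extraction text speaks of preadipocytes. The study describes isolating epididymal adipocytes from the fat with collagenase, and the part of this step in the values was not tested. All 10 adipocyte markers examined, among them Adipoq and Plin1, were above background, with a mean log2 signal of 4.25 to 5.29 relative to the 75th percentile on the control arrays and 4.50 to 4.85 on the CUS arrays. Nothing in the labels says whether the 6 arrays of a group came from separately prepared cell samples, so p-values measure the spread between arrays.

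Every value below is the log2 of the spot signal minus the log2 of the 75th percentile of that array, so a value of 0 is a gene as bright as that percentile and a difference of 1 is a 2-fold difference. The share of probes well above background ranged from 60.5% to 67.4% per array. Each group filled a slide of its own, so slide and stress cannot be told apart. The 8 probes for spike-in RNA were 0.82 lower on average on the log2 scale on the CUS arrays after this scaling. When the arrays were scaled on the spike-ins instead, the median tested probe lay 0.81 higher in CUS, and without any scaling 0.76 higher. Differences are therefore given relative to the rest of the same array. Cell type markers also differed between the groups. The mast cell list was higher for 8 of 9 tested genes, 4 of which were above background on at most 1 control array, and the red blood cell list was higher for 6 of 6. The mesothelial list was higher for 5 of 7 and the neutrophil list for 2 of 3. The smooth muscle and pericyte list was lower for 7 of 9, the endothelial list for 6 of 10 and the fibroblast and preadipocyte list for 2 of 9. Their part in the differences below was not tested, and in such bulk samples fewer cells of a type and less RNA per cell cannot be told apart.

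AP-1 proteins bind DNA as pairs. FOS family proteins cannot pair with each other and need a JUN partner, whereas JUN proteins can pair among themselves as well as with FOS and ATF proteins. Most of these genes belong to the immediate early genes, whose transcripts rise within minutes of a signal from MAP kinases and decay fast. In fat cells AP-1 is activated by cytokines, growth factors and cellular stress, and it acts on genes of inflammation, of matrix breakdown and of adipocyte differentiation.

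Some sequences help to read the values. The first is the probe pair of Fosl2, shown because the 2 probes gave different answers. Both are 60 bases long with 33 G or C bases, and they start 560 bases apart in the transcript, at positions 731 and 171. The brighter probe is named first.

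Fosl2 brighter probe: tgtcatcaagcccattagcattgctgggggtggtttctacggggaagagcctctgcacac

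Fosl2 dimmer probe: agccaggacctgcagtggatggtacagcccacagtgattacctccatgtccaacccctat

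The next is the probe of Fosb, the only member whose value was lower in CUS. This gene also makes a shortened protein, ΔFosB, known for its slow build-up under repeated stimulation. A single probe gives 1 value, and how far this probe reads the transcript of each form was not examined. The Fosb value below is therefore not a measure of ΔFosB. The probe maps to chromosome 1, 78668672 to 78668731, on the minus strand of rn4, the build that the array files name, and the Fosl2 probes have no position in the array design.

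Fosb probe: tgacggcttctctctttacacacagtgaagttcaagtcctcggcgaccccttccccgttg

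The last is the stretch of promoter that holds the cyclic AMP response element (CRE), a site bound by CREB and ATF proteins and by JUN with ATF2, searched here as TGACGTCA on both strands. Promoters from 250 bases before to 50 bases after the gene start were available from RefSeq (GRCr8) for 7 of the 10 members, and named without sequence here are Fos, Jun and Atf3. The CRE was found in 2 of the 7, Maff and Jund, against 1.83% of all 33469 promoters, and it is in capitals below. In Maff it starts 51 bases before the gene start, in a window at chr7:112792667-112792786 on the plus strand. In Jund it starts 221 bases before the gene start, in a window at chr16:18769902-18770021 on the minus strand.

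Maff promoter: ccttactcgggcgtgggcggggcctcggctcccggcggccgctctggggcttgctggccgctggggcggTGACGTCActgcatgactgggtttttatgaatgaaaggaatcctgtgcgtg

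Jund promoter: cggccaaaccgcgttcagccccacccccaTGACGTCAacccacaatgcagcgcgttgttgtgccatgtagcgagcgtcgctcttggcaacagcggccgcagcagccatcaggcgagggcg

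The site that AP-1 itself binds, the TPA response element TGANTCA, was in none of the 7 windows and in 7.33% of all promoters. The letters TATAAA of the TATA box, on either strand, were in 2 of the 7 and in 14.2% of all promoters. In Junb they start 49 bases before the gene start on the strand of the gene, and in Fosb 180 bases before it on the opposite strand. The CArG box of serum response factor was in none of the 7 and in 1.64% of all.

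In CUS, 6 of the 10 members rose, 0 fell and the other 4 missed the threshold (limma across all probes, adjusted p below 0.05, each gene at its brightest probe). Over all 17411 genes tested, 23.7% were higher and 25.4% lower by the same rule, or 49.1% in either direction. The members that rose were Fos, Fosl1, Fosl2, Atf3, Batf and Maff. The median log2 difference of the 10 members was 0.70, beside -0.02 for all genes, and 9 of the 10 differences were above 0, as were 48.4% of all genes. With the arrays scaled on the spike-ins or not scaled at all, all 10 members were higher, in a split of 11110 higher and 434 lower genes for the spike-ins where the main scaling gave 4119 and 4425. At least 2-fold higher were 3 members, Fosl1, Fosl2 and Atf3, against 3.23% of all genes, and 0 members were lower by that much, against 8.69%.

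**Figure D1:**
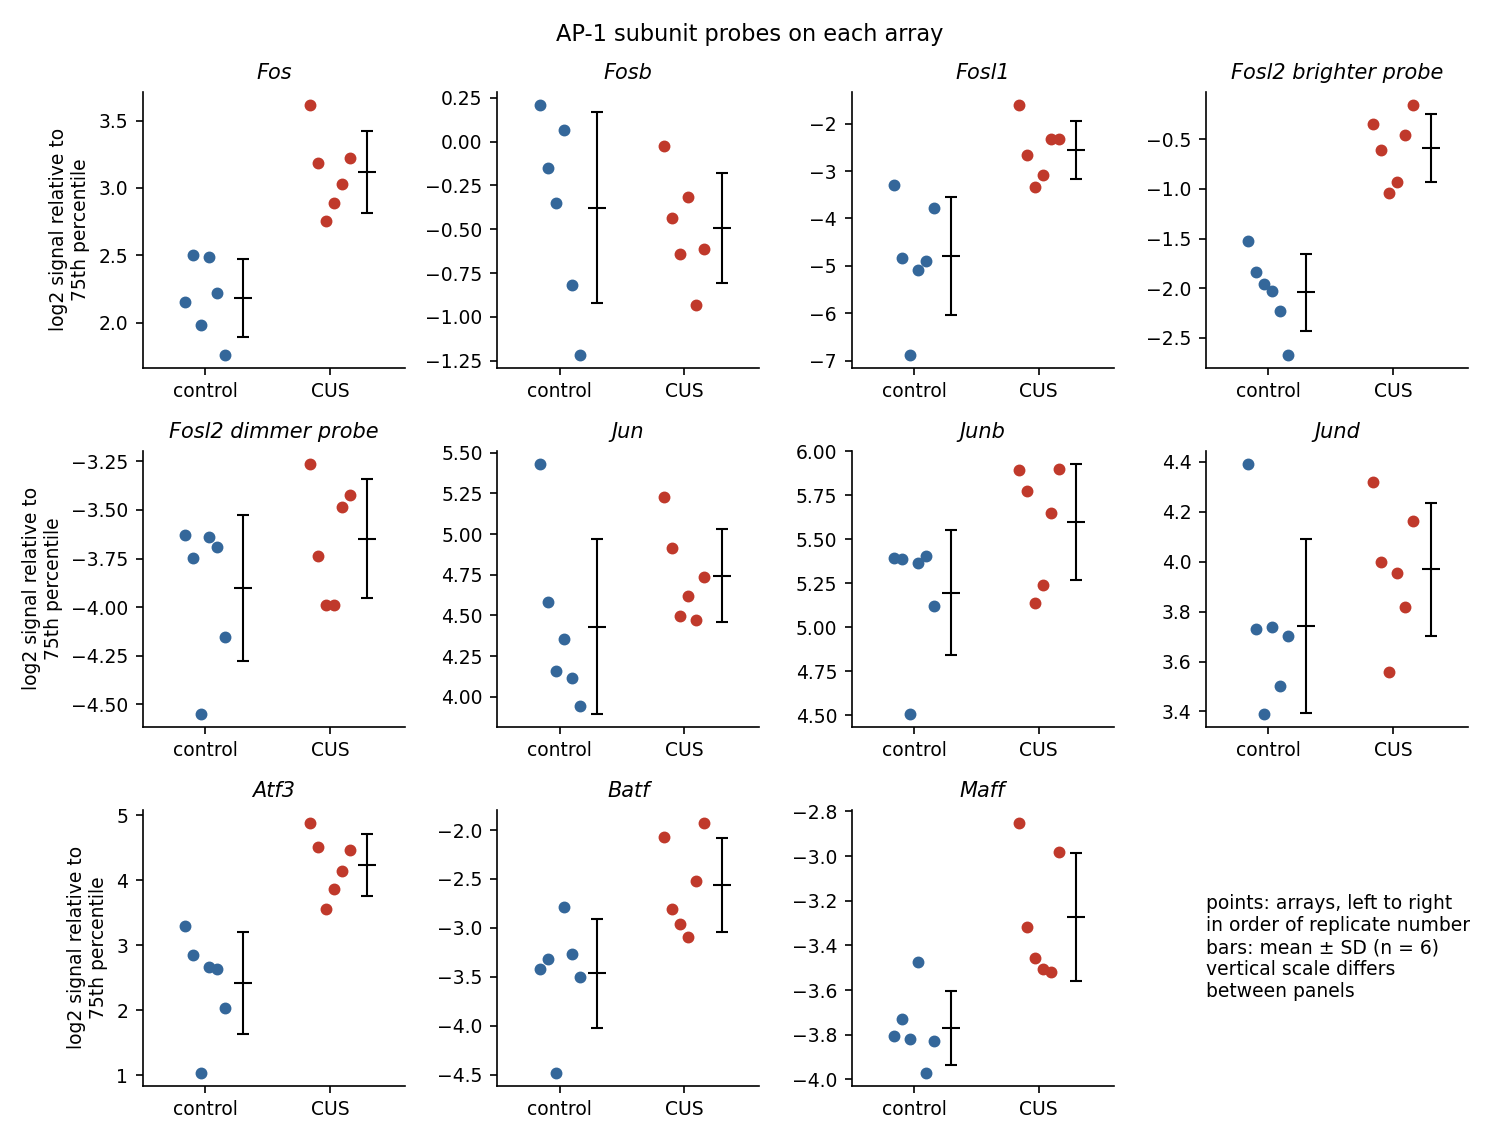
Log2 signal of each AP-1 subunit probe with the 75th percentile of the array at 0 (vertical axis, scale differs between panels) on 6 control arrays (blue) and 6 CUS arrays (red), in order of replicate number. Black bars give the mean ± SD. The CUS arrays lie wholly above the control arrays for Fos, the brighter Fosl2 probe and Atf3.

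The FOS family gave the widest range of responses. Fos is the founding member, an unstable protein that is induced early after stimulation. Its lowest, median and highest log2 signals were 2.75, 3.11 and 3.62 on the CUS arrays and 1.76, 2.19 and 2.51 on the control arrays. The groups did not overlap, as was the case for 9.22% of all genes in the direction of CUS. Fos was 1.90-fold higher in CUS (log2 difference 0.93, 95% interval 0.58 to 1.28, limma adjusted p = 0.00077). Its 60-base probe maps to chromosome 6, 109561941 to 109562000, on the plus strand of rn4. The probes of Jun, Junb, Jund, Fosl1, Atf3, Batf and Maff lie on chromosomes 5, 19, 16, 1, 13, 6 and 7.

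Fosl1 encodes FRA-1, a FOS protein without a strong activation domain that appears later than Fos and is known for its part in cell migration. Its probe was dim. The signals were -3.32, -2.49 and -1.59 in CUS and -6.89, -4.87 and -3.30 in control (lowest, median and highest), and 5 of the 6 CUS arrays lay above the highest control array. The difference of 2.24 on the log2 scale was the largest among the members, and it also had the widest interval (1.15 to 3.34; 4.74-fold, limma adjusted p = 0.0034). The probe was well above background on 6 CUS arrays and 5 control arrays. Control replicate 3, the array where it was not, gave the lowest value, and leaving out any single array kept the call, with differences of 1.83 to 2.54. With a background correction by the normexp model the difference was 0.58 (adjusted p = 0.011, limma).

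Fosl2 encodes FRA-2, which is also long lived and has been linked to leptin expression in fat cells. Its brighter probe gave -1.04, -0.53 and -0.15 in CUS and -2.67, -1.99 and -1.52 in control, without overlap between the groups. This was 2.74-fold higher in CUS (log2 difference 1.45, 95% interval 1.03 to 1.88, limma adjusted p = 0.00014), the lowest adjusted p among the members. Its dimmer probe gave -3.99, -3.61 and -3.26 in CUS and -4.55, -3.72 and -3.63 in control, and 3 of 6 CUS arrays lay above the highest control array. Its difference was 0.25 (95% interval -0.15 to 0.65, limma adjusted p = 0.27).

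Both Fosl2 probes sit on the same arrays, so scaling by 1 number per array drops out of their difference within an array. The brighter probe exceeded the dimmer by 3.06 ± 0.13 in CUS and 1.86 ± 0.44 in control on the log2 scale (SD, n = 6). The change of 1.20 had an exact permutation p of 0.0022, two-sided, the smallest that 924 assignments of arrays to groups allow. The lowest CUS array, at 2.92, lay above the highest control array, at 2.59. The probes therefore changed unequally, by 0.96 with quantile normalization, 0.97 in the deposited value table and 1.31 with normexp. The dimmer probe was near the low end, with signals before scaling of 47.9 to 79.2 in CUS and 13.3 to 42.1 in control. The dimmer probe gave 0.53 with quantile normalization (limma adjusted p = 0.044) and -0.26 with normexp (limma adjusted p = 0.035). With normexp the brighter probe gave 1.05 (limma adjusted p = 5.6e-05).

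**Figure D2:**
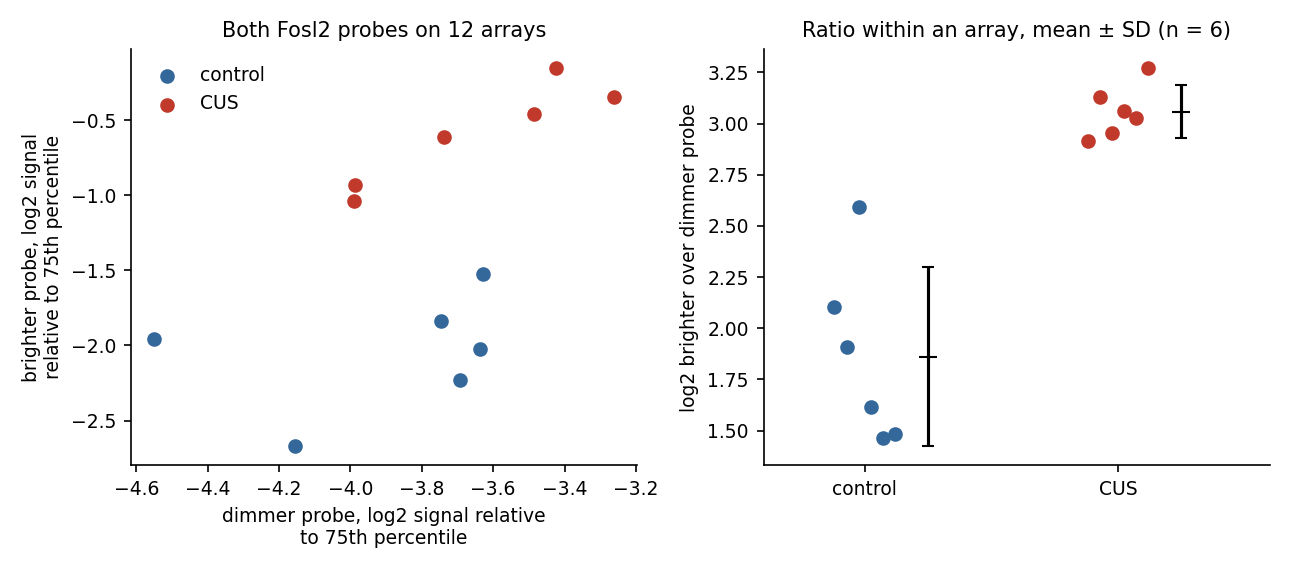
Left, log2 signal of the brighter against the dimmer Fosl2 probe on the 12 arrays, each relative to the 75th percentile of the array, with control in blue and CUS in red. Right, the log2 ratio of the 2 probes within each array, with the mean ± SD (n = 6) in black; all CUS arrays lie between 2.92 and 3.27 and all control arrays between 1.46 and 2.59.

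Fosb did not pass the test. Its signals were -0.94, -0.52 and -0.02 in CUS and -1.22, -0.25 and 0.21 in control, and the control arrays spanned the CUS arrays. The log2 difference was -0.12 (95% interval -0.63 to 0.39, limma adjusted p = 0.70), an interval that leaves out a 2-fold difference either way. The sign depended on the scaling, being 0.71 on the spike-ins and 0.66 without scaling (limma adjusted p = 0.02 in both), where the median of all probes was raised by 0.81 and 0.76.

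**Figure D3:**
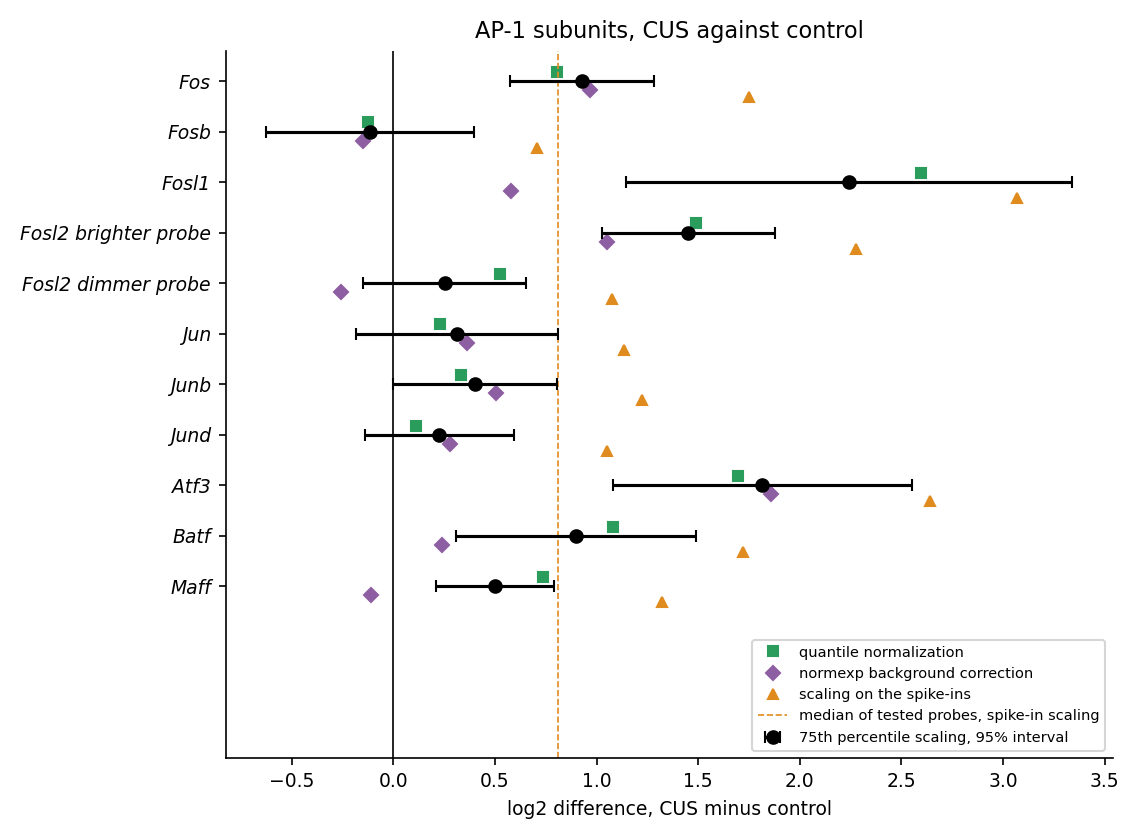
Log2 difference, CUS minus control, of each AP-1 subunit probe (black, with the 95% interval from limma over 12 arrays) and the same difference under 3 other ways of processing (coloured symbols). Scaling on the spike-ins moved all probes to the right by about the median shift of all tested probes (dashed line, 0.81). The normexp correction moved the dim probes of Fosl1, Batf and Maff and the brighter and dimmer Fosl2 probes to the left.

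The JUN family showed smaller differences. Jun is the main partner of Fos and is activated by the kinase JNK. Its signals were 4.47, 4.68 and 5.23 in CUS and 3.94, 4.26 and 5.43 in control. The highest array of all was control replicate 1, and 4 of 6 control arrays lay below the lowest CUS array. The log2 difference was 0.31 (95% interval -0.18 to 0.81, limma adjusted p = 0.27).

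Junb often restrains Jun and pairs with Batf in immune cells. Its signals were 5.14, 5.71 and 5.90 in CUS and 4.51, 5.38 and 5.40 in control, and 4 of 6 CUS arrays lay above the highest control array. The log2 difference was 0.40 (95% interval 0.00 to 0.81, limma adjusted p = 0.088), and this probe had 1 spot per array where every other member had 2.

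Jund is expressed steadily in many tissues and is known to protect cells against oxidative stress. Its signals were 3.56, 3.98 and 4.32 in CUS and 3.39, 3.72 and 4.39 in control. The highest array was again control replicate 1. The log2 difference was 0.23 (95% interval -0.14 to 0.59, limma adjusted p = 0.28).

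Whether the JUN genes passed depended on single arrays and on the processing. Without control replicate 1, Jun was 0.51 and Jund 0.36 higher in CUS (limma adjusted p = 0.02 and 0.049). Without CUS replicate 3, Junb was 0.49 higher (limma adjusted p = 0.048). With normexp and all arrays, Junb was 0.51 higher (limma adjusted p = 0.021).

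Atf3, a stress-induced ATF protein that pairs with JUN proteins and dampens inflammatory genes, had the largest difference among these partners. Its signals were 3.56, 4.30 and 4.88 in CUS and 1.03, 2.65 and 3.29 in control. The groups did not overlap, although control replicate 3 was far below the other control arrays. Atf3 was 3.52-fold higher in CUS (log2 difference 1.82, 95% interval 1.08 to 2.55, limma adjusted p = 0.0011), and the difference was 1.54 to 1.99 with any single array left out.

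Batf pairs with JUN proteins and IRF factors and is known from lymphocytes and dendritic cells. Its probe was dim, with -3.09, -2.66 and -1.92 in CUS and -4.48, -3.37 and -2.79 in control. Control replicate 4 lay within the CUS range and the other 5 control arrays below it. Batf was 1.87-fold higher (log2 difference 0.90, 95% interval 0.31 to 1.49, limma adjusted p = 0.016). With normexp the difference was 0.24 and did not pass (limma adjusted p = 0.15). The lymphocyte list had 4 of 11 genes tested, 0 of them higher, and the macrophage list had 4 of 10 higher, with a summed log2 level of 4.50 to 5.89 in CUS and 3.10 to 4.95 in control. The part of either list in the Batf value was not tested.

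Maff is a small MAF protein, lacking an activation domain, that pairs with NRF2 and BACH proteins and with FOS. Its signals were -3.52, -3.39 and -2.85 in CUS and -3.97, -3.81 and -3.47 in control, with 4 of 6 CUS arrays above the highest control array. Maff was 1.41-fold higher (log2 difference 0.50, 95% interval 0.21 to 0.79, limma adjusted p = 0.0091). With normexp its difference was -0.11 (limma adjusted p = 0.38), so the rise of this dim probe was not kept there.

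Because AP-1 proteins act as pairs, the ratio between members was compared within each array, where the percentile used for scaling drops out. Of 45 ratios, 29 differed between the groups (exact permutation test, two-sided, 924 assignments, adjusted over the 45; 30 before adjustment), and 14 did not overlap. Ratios between other pairs of genes were not computed, so the counts here have no background share and only describe these members. The 45 ratios reuse the same 10 genes, of which 6 passed on their own, where 49.1% of all genes passed in either direction. None of the 3 ratios among Jun, Junb and Jund passed, whereas 15 of 21 between a JUN gene and another member did, and 14 of 21 among the others. The largest change among those 3 was 0.18 on the log2 scale, for Junb to Jund (exact permutation p = 0.30 before adjustment).

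Relative to Jun, the ratio of Fos rose by 0.62, that of Fosl2 by 1.14, that of Fosl1 by 1.93 and that of Atf3 by 1.50 on the log2 scale (adjusted p of 0.007, 0.007, 0.012 and 0.007, exact permutation test). The ratios of Batf and Maff to Jun changed by 0.59 and 0.19 and did not pass (adjusted p = 0.16 and 0.61, exact permutation test). Both passed with quantile normalization, where they rose by 0.85 and 0.51 (adjusted p = 0.031 and 0.023, exact permutation test), and in the deposited value table, by 0.86 and 0.51 with the same adjusted p. With normexp the ratio of Fosl1 to Jun rose by only 0.22 and did not pass (adjusted p = 0.45, exact permutation test). Fos rose by 1.05 relative to Fosb (adjusted p = 0.007, exact permutation test), from a log2 ratio of 2.56 ± 0.42 in control to 3.61 ± 0.28 in CUS (SD, n = 6). Fosl2 rose by 1.57 relative to Fosb and by 0.95 relative to Maff (both adjusted p = 0.007, exact permutation test). Fos to Fosl2 fell by 0.52 on the log2 scale (adjusted p = 0.035, exact permutation test), a change that did not pass in 7 of the 12 runs with 1 array left out. With normexp this ratio changed by only -0.086 and did not pass (adjusted p = 0.65, exact permutation test).

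**Figure D4:**
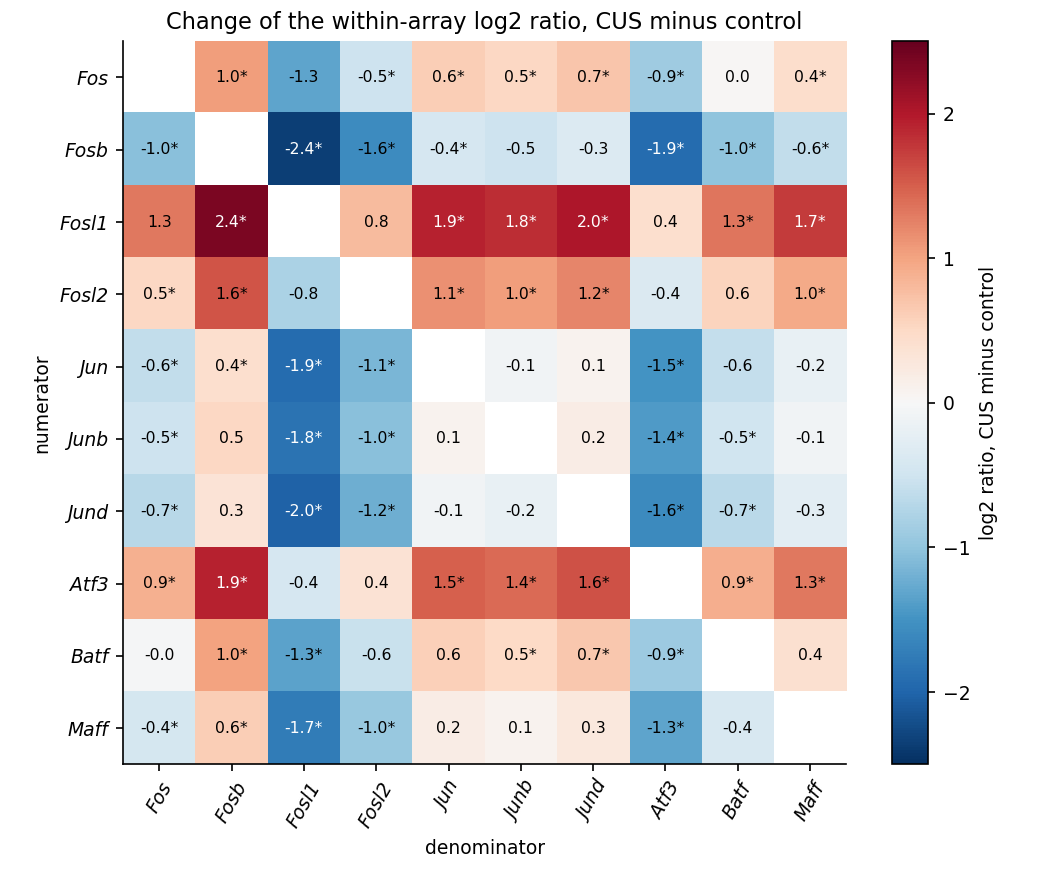
Change of the within-array log2 ratio between AP-1 subunits, CUS minus control, with the numerator on the vertical and the denominator on the horizontal axis; an asterisk marks an adjusted p below 0.05 by the exact permutation test. The 3 ratios within the JUN family are near 0 and without an asterisk, while Fos, Fosl1, Fosl2 and Atf3 rose against each JUN gene.

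Deviations of the members from their group mean were also compared from array to array. Over the 12 arrays their correlation was above 0 for 45 of 45 pairs of members, with a median r of 0.56. Over all pairs of 12199 genes, 52.6% were above 0 and the median r was 0.04. These r values are a description, since the arrays of a group share a slide, the labelling and the scaling by 1 number per array. The highest was 0.92 for Junb and Atf3, the lowest 0.05 for Fosb and Fosl1. The median was 0.81 within CUS, where 0 pairs were below 0, and 0.52 within control, where 5 were, the lowest at -0.09. CUS replicate 1 lay above its group mean for 10 of 10 members and was the highest CUS array for 7, and CUS replicate 3 lay above it for 0. Among the control arrays, replicate 1 was the highest for 6 members and replicate 3 the lowest for 5.

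The genes whose deviations followed each member most closely were sought among 12199 genes read over the same 12 arrays, and 3 per member are named. Each was picked for having a top value of r in this search, so the size of r is no support for a link. Atf3 was closest to Gadd45b (r = 0.98), a growth arrest and DNA damage gene, then to Avpr1a and Ccrl2. Fosl2 was closest to Gadd45g (r = 0.91) of the same family, then to Hist2h3c2 and Eif1. Junb was closest to Actg1 (r = 0.98), a cytoplasmic actin, then to Rac2 and Septin6. Batf was closest to Ncf4 (r = 0.98), a subunit of the phagocyte oxidase, then to Hcst and Prkcq.

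Fos followed Rnf207 (r = 0.96), Cdh5 and Prf1. Fosb followed Zbtb8b (r = 0.99), Bcl11a and Etv3, and Fosl1 followed Smoc2 (r = 0.95), Stmn2 and Fxyd6. Jun followed Rpl36a (r = 0.95), Nr1i2 and Nup50. Jund followed Rpph1 (r = 0.95), Kdm6b and Smim11, and Maff followed Ralgds (r = 0.90), Scgb1a1 and Hrob. No other member was among the 3 closest genes of any member.

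The genes around AP-1 were read from 6 lists by the same test, with directions relative to the rest of the array. With the spike-in scaling, 0 genes of the partner, kinase, Fos promoter and restraint lists were lower in CUS, and 14, 13, 7 and 12 were higher. All counts stand beside 23.7% higher and 25.4% lower over all genes. The higher counts include Nfe2, Elk1, Det1, Egr4 and Ptgs2, 1 in each list but the kinases, each above background on at most 1 control array. These genes met the filter only through the CUS arrays, so their calls are no support for a difference. Among the bZIP and IRF factors that pair with AP-1 or share its sites, 6 of 17 tested genes were higher and 4 lower, with a median log2 difference of 0.21, shares of 35.3% and 23.5%. The partner Nfe2 was well above background on all CUS arrays and on none of the control arrays. Nfe2 met the filter only through the CUS arrays, where it is high, so its call is no support for a difference. With the main scaling the lower bound on its rise was 2.07-fold, which was not kept with normexp. Such a bound sets the mean of the bright group against the lowest signal well above background on each array of the dim group. Mafk, a small MAF protein like Maff, was 0.76 higher, Nfe2l2, which encodes NRF2, 0.52, Ddit3 0.40 and Jdp2 0.38. As log2 differences, Irf8 gave -1.22, Batf2 -0.90, Bach2 -0.84 and Atf7 -0.28, and with the spike-in scaling the Atf7 difference was 0.54. Irf8 was well above background on only 3 CUS and 4 control arrays. With quantile normalization Irf8 and Batf2 did not pass (limma adjusted p = 0.18 and 0.079), and 1 partner was lower. With normexp the sign was the opposite for the dim probes of Nfe2 (-0.21) and Jdp2 (-0.16). Atf2 gave 0.21 at its brightest probe and did not pass (limma adjusted p = 0.18), while its other probe gave -0.83 and passed as lower (limma adjusted p = 0.0015).

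Among the MAP kinases and their effectors upstream of AP-1, 6 of 16 were higher (37.5%) and 3 lower (18.8%), with a median of 0.19. Map2k5, which activates ERK5, was 0.88 higher, Map2k4, which activates JNK, 0.78, Rps6ka4 0.67, Map2k1 0.49 and Rps6ka5 0.47. Rps6ka2, Map3k1 and Rps6ka1 gave -0.93, -0.69 and -0.60. Another Rps6ka2 probe gave -0.47 and did not pass (limma adjusted p = 0.14). With normexp Map2k5, Map2k4 and Rps6ka4 did not pass, and with the spike-in scaling none of the 3 lower genes did. The factors and coactivators bound at the Fos promoter went the other way, with 1 of 15 higher and 8 lower (median -0.35), although Fos itself rose; with the spike-in scaling this turned to 7 higher and 0 lower. Crtc3 gave -0.91, Crebbp, the CREB coactivator CBP, -0.89, Elk3 -0.78, Mef2a -0.61 and Elk4 -0.46, and Elk1, above background on 1 of 6 control arrays, 0.87. With the spike-in scaling Elk3, Mef2a and Elk4 were 0.05, 0.21 and 0.37, with none passing, and with normexp Elk1 was -0.34. Another Elk4 probe gave 0.25, and another Crtc3 probe gave -0.22 and did not pass (limma adjusted p = 0.25).

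Genes that restrain AP-1 included 6 of 13 higher and 1 lower (median 0.39). Of the 7 phosphatases tested that switch off MAP kinases, 3 were higher, 1 was lower and 3 did not pass. Dusp5 was 3.12-fold higher (log2 difference 1.64 ± 0.19 SE, limma adjusted p = 5.2e-05), Dusp1 2.84-fold (1.51 ± 0.17 SE, limma adjusted p = 3.5e-05) and Dusp2 2.18-fold (1.12 ± 0.26 SE, limma adjusted p = 0.0038). None of the 3, which are among the 5 largest rises of the list, overlapped between the groups. Over all genes, 9.22% did not overlap in the direction of CUS. The phosphatases that did not pass were Dusp6 at -0.11, Dusp10 at 0.25 and Dusp16 at 0.39 (limma adjusted p = 0.61, 0.32 and 0.089), and Dusp4 gave -0.63. Zfp36, which speeds the decay of unstable transcripts, was 0.95 higher without overlap. Det1, above background on 1 of 6 control arrays, gave 0.67. Under normexp Dusp2 was 0.07 and Det1 -0.44.

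Of the immediate early genes outside AP-1, 11 of 35 were higher and 0 lower (median 0.32). With the spike-in scaling 27 were higher and without scaling 29. The 0 lower genes became 5 with array weights, 2 with quantile normalization, normexp or the deposited value table, and 0 to 3 with 1 array left out, 3 being without control replicate 3. Pim1, a kinase gene, was 4.26-fold higher (log2 difference 2.09, limma adjusted p = 7.3e-06), followed by Egr4 at 1.76, Csrnp1 at 1.21, Dnajb1 at 1.19 and Ier3 at 0.84. Egr4 was above background on 1 of 6 control arrays and gave -0.08 with normexp. Genes often induced together with Fos did not pass, chosen for mention after their values were seen, namely Egr1 at 0.06 (limma adjusted p = 0.79), Nr4a1 at -0.14 (0.77), Ier2 at 0.28 (0.21) and Btg2 at -0.04 (0.81). Another, dimmer Egr1 probe gave 0.63 and passed (limma adjusted p = 0.037), and the other Nr4a3 probe gave -1.58 and passed as lower (limma adjusted p = 0.0077), where the brighter gave 0.49 (0.22).

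Among known AP-1 target genes, 8 of 18 tested were higher and 2 lower (median 0.32), or 12 and 1 with the spike-in scaling. The cytokine Il6 was 14.9-fold higher (log2 difference 3.90 ± 0.67 SE, limma adjusted p = 0.00066), Hmox1, the heme oxygenase, 8.21-fold (3.04 ± 0.24 SE, limma adjusted p = 3e-06) and Tnf 6.64-fold (2.73 ± 0.40 SE, limma adjusted p = 0.00024). None of the 3, which are among the 5 largest rises of the list, overlapped between the groups. Over all genes, 9.22% did not overlap in the direction of CUS. Ptgs2, the inducible cyclooxygenase, was above background on no control array, and like Nfe2 it met the filter only through the CUS arrays. Its lower bound with the main scaling was 2.66-fold, which was not kept with normexp (-0.16). Ccl2 was 1.53 higher, and leptin (Lep), which FRA-2 has been linked to, was 1.71-fold higher (log2 difference 0.78 ± 0.25 SE, limma adjusted p = 0.021). Spp1, the gene of osteopontin, gave -1.85 and Ccnd1, cyclin D1, -0.82. Beside these targets, the mast cell list had a summed log2 level of 0.68 to 2.06 in CUS and -2.00 to -1.41 in control. Its part in these values was not tested. Of the 42 genes chosen from the 6 lists by size or name, 38 kept their call with any single array left out, and Atf7, Jdp2, Rps6ka5 and Ccnd1 did not.

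**Figure D5:**
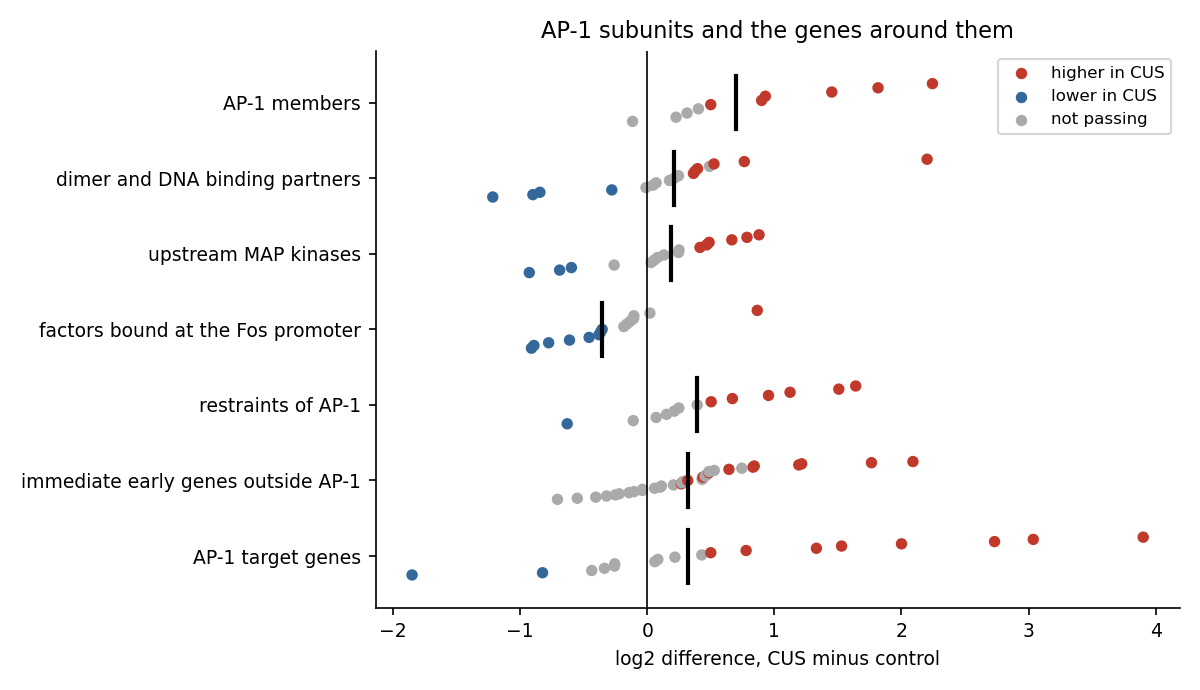
Log2 difference, CUS minus control, of the AP-1 subunits and of 6 lists of genes around them, 1 point per tested gene at its brightest probe, with the list median as a black bar. Red and blue points passed the limma test (adjusted p below 0.05) as higher or lower in CUS relative to the rest of the array. The factors bound at the Fos promoter are the only list with more lower (8) than higher (1) genes, a split that became 0 and 7 with the spike-in scaling.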

How the data were processed

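Single-colour Agilent rat gene expression arrays (12 arrays, 6 per group) were read from the deposited scanner output. Per the file headers, the authors used Agilent Feature Extraction 10.7.3.1, and its processed signal is a background-corrected intensity on a linear scale, not normalized between arrays. The study's methods name an exon array, but the deposited files are of a gene expression design with rn4 coordinates. The deposited value table holds the same arrays as intensity on a linear scale, quantile normalized by the authors (every column has a median of 46.7) and not centred, and it served as an alternative on the log2 scale.

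Outlier spots were dropped, replicate spots averaged per probe, and the log2 of the 75th percentile of each array was subtracted. A probe entered the test if 6 or more of the 12 arrays showed it well above background, with limma 3.58.1 (R 4.3.3; lmFit and eBayes, Benjamini-Hochberg over all tested probes, adjusted p below 0.05). A gene was read at its brightest tested probe. Within-array ratios were compared by exact permutation tests (Python 3.11.15). The fit was tested on simulated data. Precision was limited by the number of arrays. The members and lists were chosen with earlier results of these data known. Named were every member, up to 5 genes per direction with the largest differences in each list, Lep, Hmox1, Il6 and Dusp1, and the 3 closest genes of each member. Atf2, Egr1, Nr4a1, Nr4a3, Ier2, Btg2, Dusp6, Dusp10 and Dusp16 were added after their values were seen. Alternatives covered scaling, background correction, filters, the test and each array left out. No file was left out.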

Additional observations from a re-analysis of the deposited data

Results flagged for a closer look

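In groups of 6 arrays, the highest or lowest array stood apart from the rest for 12 of 106 groups of values examined (Dixon's test at the 95% level, where chance picks about 1 in 20 groups), and 10 of the 12 concerned control replicate 3. There its log2 signal relative to the 75th percentile was 4.51 for Junb, with the next array at 5.12. The same array gave the lowest control value for Irf8 (-6.30), Elk3 (-3.49), Dusp5 (-1.73), Dusp2 (-5.45), Ier3 (-1.21), Hmox1 (-2.19), Tnf (-4.66) and Ccnd1 (-2.19), and the highest for Lep (-0.34). Control replicate 1 stood above the other control arrays for Jund, at 4.39 with the next at 3.74, and for Mafk, at -2.42. Leaving out control replicate 3 changed no call of an AP-1 member. This array had the lowest 75th percentile intensity of the 12 arrays, 311, and the lowest share of probes well above background, 60.5%. The part of this in its values was not tested. Irf4, a partner of Batf, and Mmp3, a matrix protease, were not tested because too few arrays were above background, and each was well above background on 1 of 6 CUS arrays and 0 of 6 control arrays.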

How the results depend on the processing

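Values on the log2 scale are CUS minus control. Of 263 recomputed member differences, 242 kept direction and call. The count of members called was 6 to 8 with 1 array left out (member probes 6 to 8, all genes 7327 to 10325, pathway genes 52 to 64, within-array ratios 22 to 31, Fosl2 probe difference 1.12 to 1.34). Fosb ranged from -0.28 to 0.0019 there, being above 0 without control replicate 1, and Jun to Maff from -0.27 to 0.021. Without scaling, 10 members, 11 member probes and 90 pathway genes were called, and with the spike-in scaling 10, 11 and 86, where the main scaling gave 6, 6 and 56. Fosb was 0.66 and 0.71 there, Atf7 0.49 and 0.54, Map3k1 0.082 and 0.13, Rps6ka1 0.17 and 0.23, Mef2a 0.16 and 0.21, Elk4 0.31 and 0.37 and Dusp4 0.14 and 0.19, and Elk3 was 0.047 on the spike-ins. Atf7 was 0.082 with quantile normalization and 0.084 in the deposited value table. With normexp, the dimmer Fosl2 probe was -0.26, Maff -0.11, Nfe2 -0.21, Jdp2 -0.16, Rps6ka4 -0.11, Elk1 -0.34, Det1 -0.44, Egr4 -0.081 and Ptgs2 -0.16, and the ratios of Jun to Batf and to Maff changed by 0.13 and 0.47. Without the filter on dim probes, 15128 genes were called, against 8544, of which 10903 were lower, against 4425. Lower genes were 7708 with normexp, and higher genes were 11769 without scaling. In the lists, normexp gave 7 lower partners against 4, 2 higher kinases against 6, 0 higher Fos promoter factors against 1, and 3 higher restraints against 6. Quantile normalization and the deposited value table each gave 1 lower partner. The cause of these changes was not tested.

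No pairing of the arrays by replicate number was evident. The deviations of same-numbered arrays correlated between -0.19 and 0.43, and 2 of 6 CUS arrays matched their own number best. These values cannot exclude a pairing. With the replicate block, 7 members were called, Junb at 0.40 (limma adjusted p = 0.03) being added, and 9002 genes in all. The methods' t-test called 6 members at an unadjusted p below 0.05 and 6 after adjustment, and 9696 and 8186 of all genes. With the 2-fold threshold that the methods add, it called 3 members and 2080 genes at the unadjusted p. Dim probes limit what can be said of Fosl1, Batf, Maff and the dimmer Fosl2 probe.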
